A study of Homo sapiens with 19 samples.

Results

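Loci at which both human triple-negative breast cancer lines MDA-MB-436 and MDA-MB-231 carry a superenhancer are described here. A member is a superenhancer of MDA-MB-436 that overlaps one of MDA-MB-231 by 1 bp or more. The members were chosen by these measured positions, and 224 of the 537 superenhancers listed for MDA-MB-436 qualified. They met 216 of the 566 superenhancers listed for MDA-231-D and 231Pa, and these are named partners below. Members and partners joined into 214 separate loci that spanned 31.1 Mb.

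Of the 19 ChIP-seq samples of the study, 8 stand behind the superenhancers used here, with 2 H3K27ac replicates for each of 4 cell populations. MDA-MB-436_Luc2_No3a (No3a) is a polyclonal ex vivo culture and MDA-MB-436_Luc2 (436_Luc2) the parental line, and both carry luciferase. The labels do not say where the ex vivo cells were grown before. MDA-231-D is a highly metastatic clone of MDA-MB-231 and carries luciferase, and 231Pa is the parental MDA-MB-231 line without a transgene. Input samples are listed for 231Pa, MDA-231-D and 436_Luc2, and none for No3a. OCT-2 was precipitated from MDA-231-D in 2 further samples, and the labels of these 2 call the cells polyclonal, with a stable luciferase transgene. The authors combined the replicates into lists of regions that hold no read counts and no value per replicate, and depth is unknown. For each line, 3 lists separate the regions found in the derivative alone (No3a-specific, MDA-231-D-specific), in both populations (common) and in the parent alone (436_Luc2-specific, 231Pa-specific). In the common lists each region is a merge of overlapping regions from both populations, which widens it. The MDA-231-D-specific class rests on 1 clone, and cell identity could not be checked against marker expression in lists of positions.

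Superenhancers are long runs of neighbouring enhancers with dense acetylation of histone H3 at lysine 27, a mark of active enhancers and promoters. They are known to lie near genes that set the identity of a cell, and in tumours often near genes that drive growth. OCT-2, encoded by POU2F2, is a transcription factor of the POU family that binds the octamer motif and is best known from B lymphocytes. All positions are in hg19, counted from 1. The lists pair no region with a gene and no hg19 annotation was used here, so loci are given by position.

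Superenhancers common to No3a and 436_Luc2 made up most of the members. Of the 324 common regions 170 were members (52.5%, exact Clopper-Pearson 95% interval 46.9 to 58.0%). Of the 116 No3a-specific regions 25 were members (21.6%, interval 14.5 to 30.1%), and of the 97 436_Luc2-specific regions 29 (29.9%, interval 21.0 to 40.0%). Common regions thus formed 75.9% of the members and 49.2% of the other MDA-MB-436 regions. The share of members among common regions was 2.43 times that among No3a-specific ones (interval of the ratio 1.69 to 3.50) and 1.75 times that among 436_Luc2-specific ones (interval 1.27 to 2.42). Between the No3a-specific and the 436_Luc2-specific lists the ratio was 0.72, with an interval of 0.45 to 1.14 that includes equal shares. These and all further intervals cover counting error over regions and not the spread between replicate libraries, and no test was run on them.

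Seen from MDA-MB-231, superenhancers of the metastatic clone met MDA-MB-436 more often than those of its parent. Of the 225 MDA-231-D-specific regions 91 had a MDA-MB-436 superenhancer at the same place (40.4%, interval 34.0 to 47.2%). The 183 common regions gave 104 (56.8%, interval 49.3 to 64.1%), and the 158 231Pa-specific regions gave 21 (13.3%, interval 8.42 to 19.6%). The share of MDA-231-D-specific regions was 3.04 times that of 231Pa-specific regions (interval 1.98 to 4.67). On 18 of the 22 chromosomes that held both classes it was higher for MDA-231-D-specific regions, on 3 it was equal and on 1 it was lower. Several of the 18 held few 231Pa-specific regions, with 0 of 1 met on chromosome 19, 0 of 2 on chromosome 12 and 0 of 3 on chromosome 22. Leaving out any 1 chromosome kept the share between 38.6% and 41.9% for MDA-231-D-specific and between 11% and 14.4% for 231Pa-specific regions.

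**Figure D1:**
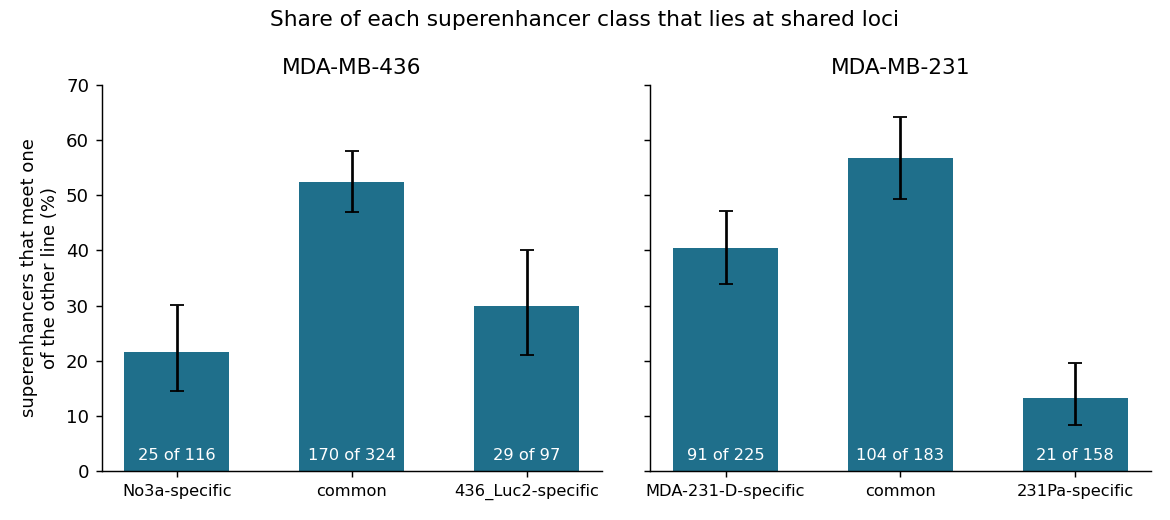
Bars give the percentage of superenhancers of each class that overlap a superenhancer of the other line by 1 bp or more, for MDA-MB-436 (left) and MDA-MB-231 (right), with exact 95% binomial intervals and the counts inside the bars. Common regions stand highest in both lines, at 52.5% and 56.8%, and the 231Pa-specific class stands lowest at 13.3%.

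The MDA-231-D-specific regions are the narrower ones (median of all such regions 76.8 kb, against 101.6 kb for 231Pa-specific regions), and a wide region meets another more easily than a narrow one. In the narrowest quartile of MDA-MB-231 regions, up to 62.3 kb, 30 of 84 MDA-231-D-specific regions (35.7%) and 2 of 39 231Pa-specific regions (5.13%) had a MDA-MB-436 partner. In the second quartile the shares were 37.3% and 13.9%, and in the third 45.1% and 19.5%. In the widest quartile, from 139.0 kb, 13 of 23 MDA-231-D-specific regions (56.5%) and 6 of 42 231Pa-specific regions (14.3%) had one. The MDA-231-D-specific share was the higher one in each of the 4 quartiles.

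The pairs of overlapping regions, 226 in all, show which classes came together. Common regions of both lines formed 86 pairs (38.1%). Common MDA-MB-436 regions formed 74 pairs with MDA-231-D-specific regions (32.7%) and 12 with 231Pa-specific regions (5.31%). Derivative met derivative, No3a-specific with MDA-231-D-specific, in 10 pairs (4.42%), and parent met parent, 436_Luc2-specific with 231Pa-specific, in 6 (2.65%). The lists differ in size. The 10 pairs held 8.62% of the 116 No3a-specific regions (interval 4.21 to 15.3%) and 4.44% of the 225 MDA-231-D-specific regions. The 6 pairs held 6.19% of the 97 436_Luc2-specific regions (interval 2.30 to 13.0%) and 3.80% of the 158 231Pa-specific regions. These intervals overlap. No3a-specific regions formed 12 pairs with common and 3 with 231Pa-specific regions, and 436_Luc2-specific regions formed 15 pairs with common and 8 with MDA-231-D-specific regions.

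The higher share of MDA-231-D-specific than of 231Pa-specific regions lay mostly at common MDA-MB-436 regions. A common MDA-MB-436 region was present at 74 of 225 MDA-231-D-specific regions (32.9%, interval 26.8 to 39.4%) and at 12 of 158 231Pa-specific regions (7.59%, interval 3.99 to 12.9%), a ratio of 4.33 (interval 2.44 to 7.70). A No3a-specific or 436_Luc2-specific region was present at 18 MDA-231-D-specific regions (8.0%) and 9 231Pa-specific regions (5.70%), a ratio of 1.40 with an interval of 0.65 to 3.05 that includes equal shares. The intervals of both ratios overlap, and common regions cover 35.0 of the 51.0 Mb of MDA-MB-436 superenhancers. The numbers of No3a-specific and 436_Luc2-specific members are too small to tell these classes apart. Of the 25 No3a-specific members, 10 met a MDA-231-D-specific region (40.0%), against 8 of 29 436_Luc2-specific members (27.6%). A 231Pa-specific region was met by 3 No3a-specific members (12.0%) and 6 436_Luc2-specific members (20.7%).

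Overlaps were extensive, although 1 bp was enough to make a member. The median member had 99.8% of its length inside MDA-MB-231 superenhancers (quartiles 82.2 and 100%, n = 224), and 100 members (44.6%) lay wholly inside. At least 50% was covered in 210 members and less than 25% in 1. The smallest overlaps were 7.56 kb (common, chromosome 5, 148288374 to 148295937), 9.82 kb (No3a-specific, chromosome 14, 105484332 to 105494153) and 11.7 kb (No3a-specific, chromosome 19, 41724297 to 41735985), and in each the whole member was covered. Just outside the rule, the nearest MDA-MB-436 regions lay 19.0 kb (chromosome 2, 109852356 to 109902288), 27.1 kb (chromosome 6, 26155147 to 26475785) and 28.4 kb (chromosome 11, 67006413 to 67086122) from a MDA-MB-231 superenhancer. None of the 313 other regions came within 10 kb, and 17 came within 50 kb (5.43%). Over all members 20.5 Mb were shared, which is 83.7% of the 24.4 Mb of the members and 75.4% of the 27.1 Mb of the partners.

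No3a-specific members lay wholly inside a MDA-MB-231 superenhancer more often than common members did. Of the 25, 18 (72.0%, interval 50.6 to 87.9%) lay wholly inside a MDA-MB-231 superenhancer, against 64 of 170 common members (37.6%, interval 30.3 to 45.4%) and 18 of 29 436_Luc2-specific members (62.1%, interval 42.3 to 79.3%). The median width was 49.0 kb in No3a-specific, 99.8 kb in common and 83.3 kb in 436_Luc2-specific members. A narrow region lies wholly inside another more easily, and the part of width in these shares was not tested. At 203 loci 1 member stood against 1 partner. There the member was the narrower region in 126 cases and the wider in 77, and the median width ratio of member to partner was 0.96 (interval of the median 0.91 to 0.99). By partner class this ratio was 0.99 for MDA-231-D-specific, 0.93 for common and 0.96 for 231Pa-specific partners.

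The ends of the regions often coincided between the lines. Ends that lie within 500 bp of each other were also used to read the MDA-MB-436 lists as hg19, so this agreement is no independent result. In 115 of 226 pairs (50.9%) the starts, the ends or both lay within 1 kb of each other, and in 18 pairs (7.96%) both did. By partner class, 60 of 92 pairs with MDA-231-D-specific regions had such an end (65.2%, interval 54.6 to 74.9%), 49 of 113 with common regions (43.4%, interval 34.1 to 53.0%) and 6 of 21 with 231Pa-specific regions (28.6%, interval 11.3 to 52.2%). Merging moves the ends of common regions outward, and its part in their lower share was not tested. An example is the No3a-specific member at chromosome 14, 102687126 to 102787755 (101 kb), whose MDA-231-D-specific partner runs over 102685893 to 102787383 and ends within 500 bp of it.

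**Figure D2:**
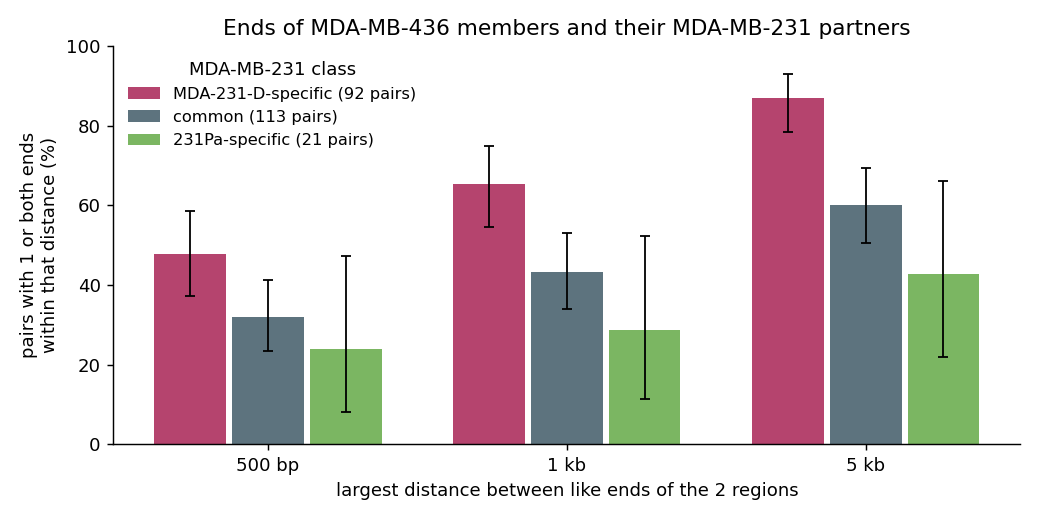
Bars give the percentage of overlapping pairs in which the starts, the ends or both of the MDA-MB-436 and the MDA-MB-231 region lie within 500 bp, 1 kb or 5 kb of each other, by class of the MDA-MB-231 region, with exact 95% binomial intervals. At 1 kb the pairs with MDA-231-D-specific regions stand at 65.2% and those with 231Pa-specific regions at 28.6%, and the 21 pairs of the last class give wide intervals.

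Members were somewhat wider than the other MDA-MB-436 superenhancers, but not in every class. The median width was 90.5 kb in members (interval of the median 83.4 to 103 kb) and 75.7 kb in the other regions (interval 69.8 to 83.0 kb). Within common regions the medians were 99.8 kb in members and 84.3 kb in the others. Within No3a-specific regions they were 49.0 kb and 47.9 kb. Within 436_Luc2-specific regions the order was reversed, with 83.3 kb in members and 91.8 kb in the others. Members spanned 7.56 to 565 kb and the others 5.12 to 321 kb. Width is tied to the rule. By width quartile of all MDA-MB-436 regions the share of members was 31.1%, 39.6%, 42.5% and 53.7%, with the narrowest quartile first.

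**Figure D3:**
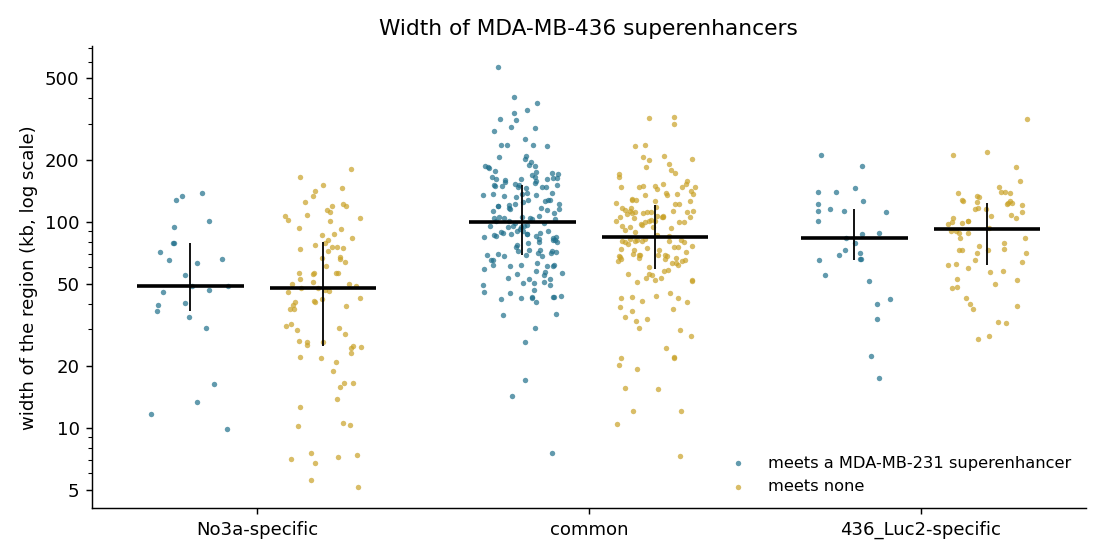
Each point is 1 MDA-MB-436 superenhancer, with its width in kb on a log scale, split by class and by whether it meets a MDA-MB-231 superenhancer; thick bars are medians and thin lines run between the quartiles. The medians of members and other regions differ most in the common class, at 99.8 and 84.3 kb, and the No3a-specific regions are the narrowest class.

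The longest shared stretches lay mostly where both lines had a common superenhancer, a combination that made up 38.1% of all pairs. Wide regions can share longer stretches. Common regions were the widest class in both lines, with a median of 94.4 kb in MDA-MB-436 and 127 kb in MDA-MB-231. The longest stretch, 497 kb, was at chromosome 20, where a common member (48635941 to 49200560, 565 kb) met a common partner of 508 kb. The next, 404 kb, was at chromosome 8 (member 128805779 to 129209768, partner of 490 kb), where the starts of both regions lay within 500 bp. Stretches of 289 kb and 236 kb lay at common partners on chromosome 2 (47006525 to 47316839) and chromosome 4 (7753357 to 7990380). On chromosome 14 (23298465 to 23586288) the shared 287 kb belonged to a MDA-231-D-specific partner, as did 270 kb on chromosome 5 (172124172 to 172500139). The others among the 10 longest were 2 members on chromosome 10 (112062665 to 112296662 and 80826096 to 81111085), 1 on chromosome 3 (11176123 to 11428918) and the only 436_Luc2-specific one, on chromosome 8 (118823001 to 119034367), which lay wholly inside a common partner of 312 kb. The chromosome 10 member at 80826096 met 2 partners, 1 MDA-231-D-specific and 1 231Pa-specific. No3a-specific members were absent from these 10 stretches. The shortest of them was 211 kb and the widest No3a-specific member was 137 kb, so none could be among them. For each partner class, the widest No3a-specific member measured 101 kb with a MDA-231-D-specific partner (the chromosome 14 region above), 137 kb with a common partner (chromosome 17, 78732151 to 78869375) and 55.2 kb with a 231Pa-specific partner (chromosome 2, 238367447 to 238422616). The widest 436_Luc2-specific members at specific partners lay on chromosome 17, at 75229356 to 75368782 with a MDA-231-D-specific and at 55900079 to 56085938 with a 231Pa-specific partner.

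Members were present on 21 of the 23 chromosomes that held regions. Chromosome 1 held 39 of the 224 (17.4%), and had 14.3% of all MDA-MB-436 regions. On chromosome 1, 50.6% of the MDA-MB-436 regions were members (interval 39.0 to 62.2%), on chromosome 20, 64.7% (interval 38.3 to 85.8%) and on chromosome 9, 29.0% (interval 14.2 to 48.0%). The highest share was on chromosome 21, where all 3 regions were members (interval 29.2 to 100%). The intervals of these chromosomes all include the share over all MDA-MB-436 regions, 41.7%. Chromosome X had 0 members among 8 MDA-MB-436 regions, with an interval that reaches up to 36.9%, and 10 MDA-MB-231 regions. Chromosome 13 had 0 among 7 MDA-MB-436 regions (interval up to 41.0%) and 3 MDA-MB-231 regions.

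Members had another member nearby no more often than the other MDA-MB-436 regions had one of their own, and they are the smaller set. Another member lay within 500 kb of 68 members (30.4%, interval 24.4 to 36.8%), and another such region within 500 kb of 118 of the 313 other regions (37.7%, interval 32.3 to 43.3%). Of the 68 members, 19 shared a partner with another member, at 9 MDA-MB-231 superenhancers. Members that meet the same partner are neighbours by position. Counting any MDA-MB-436 region as neighbour, the shares were 48.7% for members and 49.8% for the others, with median gaps of 0.560 and 0.512 Mb. With gaps of up to 500 kb the members fell into 156 single regions, 26 groups of 2, 4 groups of 3 and 1 group of 4. The others included 2 groups of 7. The group of 4, on chromosome 11 (64545810 to 65730719, 1185 kb), consisted of common members and met 3 common and 1 MDA-231-D-specific partner. The widest groups of 3 lay on chromosome 1, at 155859512 to 156476060 with 2 MDA-231-D-specific and 1 231Pa-specific partner, and at 59164679 to 59640617 with common partners alone.

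OCT-2 peaks of MDA-231-D were more frequent in members than in the other MDA-MB-436 superenhancers. OCT-2 was measured in MDA-MB-231 cells, and members lie by the rule at superenhancers of those cells, so this comparison is tied to the choice of members. Of the 917 peaks, 67 (7.31%) lay in members and 41 (4.47%) in the other regions. At least 1 peak was present in 55 of 224 members (24.6%, interval 19.1 to 30.7%) and in 38 of 313 other regions (12.1%, interval 8.74 to 16.3%), a ratio of 2.02 (interval 1.39 to 2.95). Over all 537 regions the share was 17.3%. The density was 2.74 peaks per Mb in members (exact Poisson interval 2.12 to 3.48) and 1.55 per Mb in the others (interval 1.11 to 2.10). By class, 3 of 25 No3a-specific members (12.0%), 44 of 170 common members (25.9%) and 8 of 29 436_Luc2-specific members (27.6%) held a peak. In the other regions of these classes 7.69%, 14.9% and 11.8% did. The interval for No3a-specific members, 2.55 to 31.2%, covers the shares of both other member classes.

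Inside the loci the peaks lay mainly where both lines had a superenhancer. By their middle, 61 peaks were in the 20.5 Mb shared by both lines, 2.98 per Mb (interval 2.28 to 3.83). The 3.99 Mb of members outside MDA-MB-231 superenhancers held 6 peaks, 1.50 per Mb (interval 0.55 to 3.27), and the 6.68 Mb of partners outside MDA-MB-436 superenhancers held 10, also 1.50 per Mb (interval 0.72 to 2.75). These intervals overlap that of the shared stretch. Within members, 31 of the 67 peaks (46.3%, interval 34.0 to 58.9%) lay in the central 50% of the region.

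Within the superenhancers of MDA-MB-231 itself, those with and without a MDA-MB-436 partner differed in OCT-2 peaks by less than the counting error. A peak was present in 57 of 216 partners (26.4%, interval 20.6 to 32.8%) and in 73 of 350 other MDA-MB-231 regions (20.9%, interval 16.7 to 25.5%), a ratio of 1.27 with an interval of 0.94 to 1.71. The densities were 2.62 and 2.35 peaks per Mb. The classes pointed in different directions, with no interval that leaves out equal shares. Of MDA-231-D-specific regions, 18.7% of partners and 25.4% of the others held a peak (ratio 0.74, interval 0.44 to 1.24). Of common regions, 35.6% and 24.1% did (ratio 1.48, interval 0.92 to 2.37), and of 231Pa-specific regions 14.3% and 14.6% (ratio 0.98, interval 0.32 to 3.01). With width, the share with a peak did not change steadily. From the narrowest to the widest quartile of MDA-MB-231 regions it was 20.5%, 22.0%, 21.3% and 37.9% in partners, and 18.4%, 11%, 25% and 31.6% in the others. In both sets the widest quartile stood highest.

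**Figure D4:**
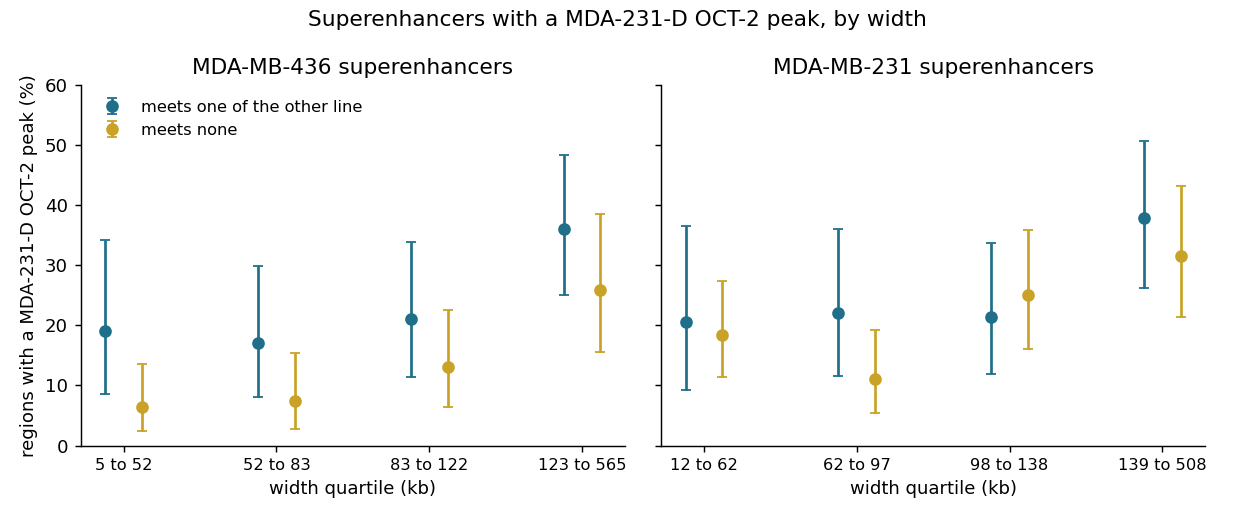
Points give the percentage of superenhancers with at least 1 OCT-2 peak of MDA-231-D in each width quartile (kb), for regions that meet one of the other line and for those that meet none, with exact 95% binomial intervals; MDA-MB-436 is on the left and MDA-MB-231 on the right. Among MDA-MB-436 regions the members stand above the others in each quartile (36.1 and 25.8% in the widest), with overlapping intervals, and among MDA-MB-231 regions the order changes in the third quartile (21.3 and 25%).

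Most members with OCT-2 held 1 peak. Of the 224 members 169 held none, 45 held 1, 8 held 2 and 2 held 3. One member with 3 peaks was the chromosome 8 region at 128805779 to 129209768, with peaks at 128930903 to 128931149, 129115778 to 129115999 and 129195414 to 129195672, all inside its common partner. The other was a common member at chromosome 1, 45172167 to 45286591 (114 kb), of which a MDA-231-D-specific partner of 46.3 kb covered 40.4%. Of its peaks, 45187565 to 45187881 and 45196895 to 45197153 lay outside the partner, at 15.6 and 24.9 kb from the left end of the member, and 45285742 to 45285982 lay inside it. Among the members with 2 peaks, which were named after their values were seen, was a No3a-specific region of 36.7 kb at chromosome 1, 59279881 to 59316568, whose peaks lay 2.97 kb apart. It belongs to the group of 3 members on chromosome 1 (59164679 to 59640617), which held 4 peaks in all. The other members with 2 peaks were 2 on chromosome 1 (59578894 to 59640617, of that same group, and 68144610 to 68260486) and 1 each on chromosomes 5 (150402849 to 150538014), 6 (25962249 to 26127272), 8 (118823001 to 119034367), 12 (120604990 to 120756194) and 19 (45871430 to 46032578). The chromosome 6 member was the only one of these at a 231Pa-specific partner.

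**Figure D5:**
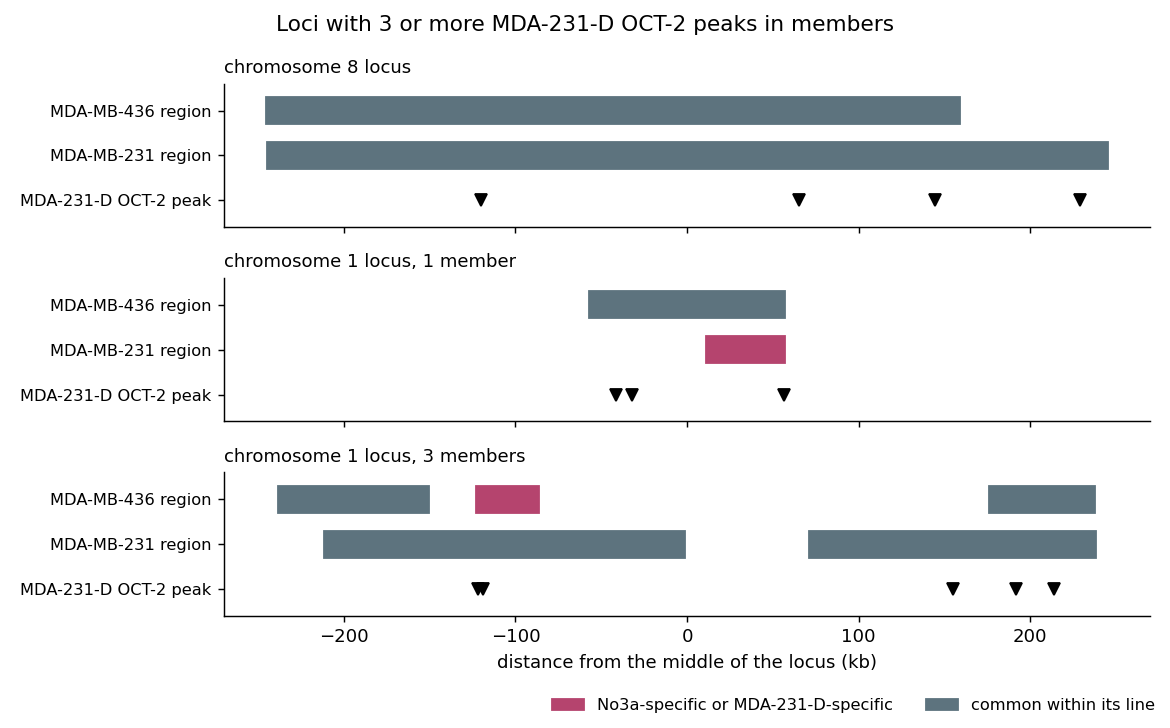
Bars show the MDA-MB-436 and MDA-MB-231 superenhancers, and triangles the MDA-231-D OCT-2 peaks, at the 2 members with 3 peaks and at the group of 3 members on chromosome 1 with 4 peaks in members, as distance in kb from the middle of each locus. At the chromosome 1 locus with 1 member, 2 of the 3 peaks lie outside the MDA-231-D-specific region, and at the other loci a further peak lies in the MDA-MB-231 region beyond the member.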

How the data were processed

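The authors deposited lists of genomic intervals, other than counts or signal: start, end and a text name with the centre and the number of merged regions. HOMER, bedtools, Bowtie and Bowtie2 2.2.2.6 are listed without roles in the submitters' processing notes; thresholds are not given in the sources used here. They determine how many regions each list holds and so every share. The file names place the MDA-MB-231 lists and the MDA-231-D OCT-2 peaks in hg19. The MDA-MB-436 lists were read as hg19: 12 of their regions end past the last gene of the same chromosome in GRCh38.p14, and 97 of 1074 region ends lie within 500 bp of an end in the hg19 MDA-MB-231 lists, against 6 for the hg38 lists of 231Pa_Luc+GFP and 231Pa_Luc+OCT-2, which were used for nothing else. The forced OCT-2 peaks, in hg38, were not used.

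Overlaps, lengths and gaps were computed in Python 3.11.15 (scipy 1.17.1, numpy 2.4.6, matplotlib 3.10.9, pandas 2.3.3), tested on simulated regions and checked against bedtools 2.31.1. Intervals are exact binomial or Poisson, order-statistic for medians and log-scale for ratios of shares. No test was run, since no value per sample exists and regions are not replicates. The members, lists and comparisons were chosen with earlier results of these data known. Regions named are the 10 longest shared stretches, members with 3 or more peaks, the largest groups, the widest member of each class pair and the nearest regions to the limit of the rule. Members with 2 peaks were added after their values were seen. Some MDA-MB-231 regions with several members are named as well. Gene lists planned for an hg19 annotation were not used. Alternatives varied the minimum overlap, the lists, the counting of peaks, the gap between neighbours and the chromosomes; the width quartiles and the class results without chromosome 1 were added after the data were seen.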

Additional observations from a re-analysis of the deposited data

How the results depend on the processing

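Of 65 alternative values for 14 results, 49 stayed within the 95% interval of the reported value, among them every value with a minimum overlap of 10 kb or of 50% of the narrower region and every value without chromosome 1. The other 16 all came from leaving out a common list or from another gap. With either minimum overlap the members were 41.3% of MDA-MB-436 regions, against 41.7% with 1 bp. So few members dropped out that these settings could hardly move a value. The alternatives also reuse the same regions, so a value that stayed is no independent result. Without a common list there are fewer regions and the class make-up of the members changes, and these were not told apart. Without the common list of MDA-231-D and 231Pa, the members were 20.7% of MDA-MB-436 regions (No3a-specific 11.2%, common 25.9%, 436_Luc2-specific 14.4%), with a median width of 82.6 kb; 18.9% held an OCT-2 peak and 15.3% had another member within 500 kb. Without the common list of MDA-MB-436, members were 25.4% of its regions, with a median width of 67.6 kb and 11.1% with another member within 500 kb, and 9.19% of MDA-MB-231 regions had a partner (MDA-231-D-specific 8.0%, common 13.7%, 231Pa-specific 5.70%). With a largest gap of 250 kb, 21.9% of members had another nearby, and with 1 Mb, 42.9%.

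In the second and the third width quartile, 40.7% of MDA-231-D-specific and 16.9% of 231Pa-specific regions had a partner. No paired analysis was possible because the lists combine the replicates; for the same reason no replicate could be left out. Peak height and depth cannot be weighed, since the lists hold neither.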

Other observations

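A few MDA-MB-231 superenhancers overlapped several members. There were 9 with 2 or more, meeting 19 members, and 8 of the 9 were common to MDA-231-D and 231Pa. Members of different classes met 5 of them. The only region with 3 members (chromosome 12, 76015960 to 76433159, 417 kb) met 1 common and 2 436_Luc2-specific members and held 0 OCT-2 peaks. On chromosome 8, 2 436_Luc2-specific members overlapped a common region of 312 kb (118820963 to 119133246) with 2 peaks. On chromosome 1 a No3a-specific and a common member overlapped a common region of 211 kb (59191145 to 59401658), also with 2.

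Counted per cell population, with its own and the common list, 44.3% of 440 regions of No3a and 47.3% of 421 regions of 436_Luc2 were members. Likewise 47.8% of 408 regions of MDA-231-D (interval 42.9 to 52.8%) and 36.7% of 341 regions of 231Pa (interval 31.5 to 42.0%) had a MDA-MB-436 partner. The 2 populations of a line share their common regions, so these shares are not independent.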
